A study of Mus musculus with 8 samples.

Results

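Genes that make eicosanoids, and a receptor for one of them, were examined in macrophages sorted from breast tumours of ATF3-deficient and wild-type mice. The set holds 10 genes, chosen by name: Ptgs1, Ptgs2, Ptges, Alox5, Alox5ap, Alox15, Ltc4s, Lta4h, Hpgds and Ptger4. Every probe whose accession belongs to one of them was taken, which gave 10 of 32665 genes and 13 of 41174 probes on the array, with 3 probes for Alox5, 2 for Ptgs2 and 1 for each other gene. The 4 KO samples came from C57BL/6 hosts lacking ATF3, a stress-induced transcription factor, and the 4 WT samples from wild-type C57BL/6 hosts. In both groups PyMT breast cancer cells had been implanted orthotopically about 21 days before the tumours were removed, and cells positive for F4/80 and CD45 were sorted from them. The tumour cells are named alike for both groups, so the genotype is that of the host. The labels number the samples 1 to 4 in each genotype and do not say whether each came from its own mouse. The p-values therefore reflect sample-to-sample spread that may be technical. Each sample had its own 1-colour array, 4 arrays per slide, and slide 1 held numbers 1 and 2 of both genotypes and slide 2 numbers 3 and 4.

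Eicosanoids are signalling lipids made from arachidonic acid, which phospholipases release from membranes. Cyclooxygenases turn it into a short-lived prostaglandin from which terminal synthases form prostaglandin E2, prostaglandin D2 and thromboxane, while lipoxygenases start the leukotrienes and hydroxy fatty acids. Macrophages are a major source of both classes, and in tumours prostaglandin E2 is best known for dampening immune responses and promoting vessel growth.

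Levels are log2 of the processed signal relative to the 75th percentile of the same array, so that 0 is the level of that percentile. They were compared within a probe only, since brightness also depends on the probe. The 75th percentiles lay between 638 and 926 intensity units on KO arrays and between 619 and 788 on WT arrays, and 63.7% to 68.0% of spots on an array were well above background. All 13 probes were well above background on all 8 arrays and none was saturated. The sort gene Adgre1, which encodes F4/80, measured 4.07 ± 0.54 in KO and 4.14 ± 0.60 in WT samples, and Ptprc, which encodes CD45, 4.42 ± 0.55 and 4.52 ± 0.54 (SD, n = 4 each). Atf3 itself did not fall in KO samples, at 5.51, 4.86, 4.96 and 4.88 in KO samples 1 to 4 and 4.92, 4.99, 4.79 and 4.51 in WT samples 1 to 4. The labels do not place its probe against the deleted part of the gene, so it cannot check them, and KO and WT below mean samples so labelled.

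None of the 10 genes was called between the genotypes. In the limma fit across 20879 genes, 0 of the 10 had an adjusted p under 0.05, against 0% of all genes, and the adjusted p was 0.9999 for each. At an unadjusted p under 0.05 there were 0 of 10, against 3.36% of all genes, and for 0 of 10 did the KO and WT values not overlap, against 2.13% of all genes. Taking each of the 13 probes on its own, in a fit across 27165 probes, again called 0, against 0% of all probes. The median log2 difference of the 10 genes was 0.032, beside −0.0090 over all genes tested. Of the 10, 6 were higher by any amount, against 48.5% of all genes.

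What set the samples apart was the replicate number, which KO and WT samples share. For 9 of the 10 genes the 4 number means, each the mean of a KO and a WT sample, spanned more than the largest KO-WT difference within a number, which held for 56.9% of all genes. For 5 of the 10 the 4 numbers ranked in the same order in both genotypes, against 17.9% of all genes. Replicate number took a median of 94.2% of the total sum of squares of the 10 genes and 66.3% over all genes, where its degrees of freedom alone would give 42.9%. Medians of the cell type marker lists used below ran from 58.3% for T cell to 99.0% for tumour epithelial markers. For the other pathway genes described below the median was 86.9%. Of those pathway genes 78% met the span rule above and 36.6% the rule of the same order, so the trait was not particular to the 10. Genotype took a median of 0.755% for the 10 genes and 4.95% over all genes. The labels do not say what a number stands for, and a number also fixes the slide.

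**Figure D1:**
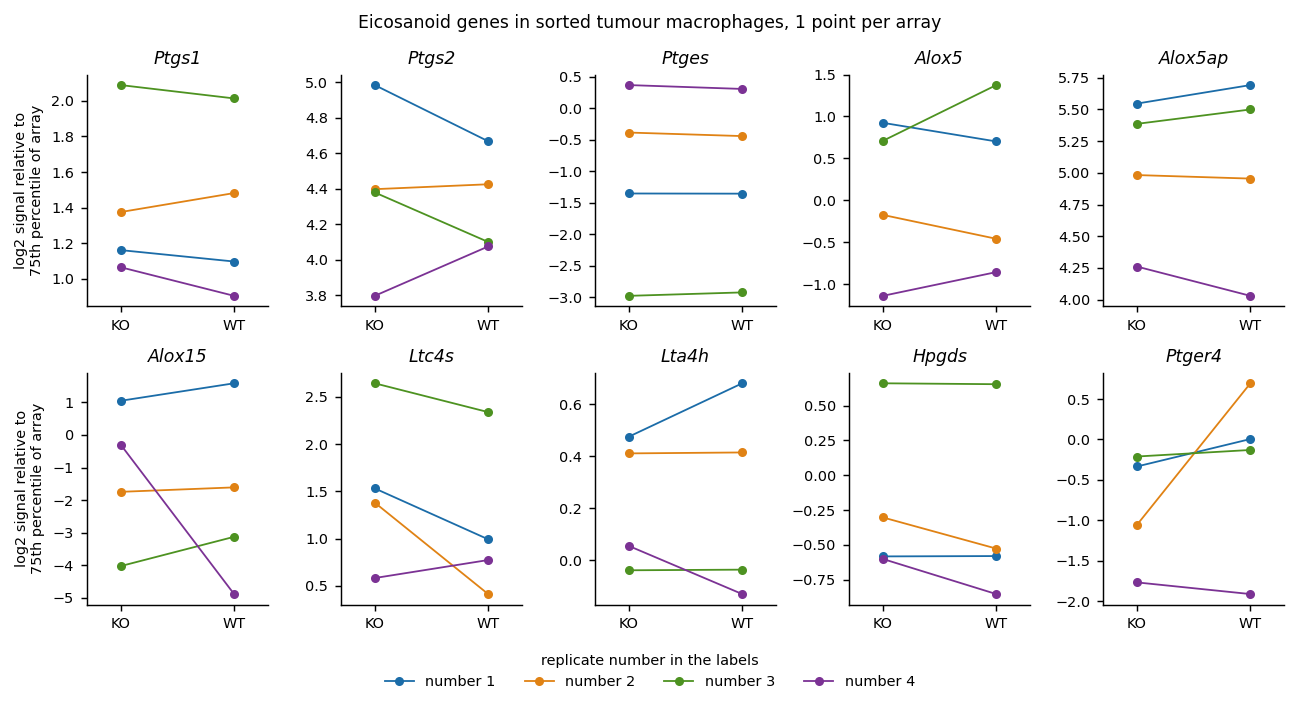
Level of each gene (log2 processed signal relative to the array's 75th percentile) in KO (left) and WT (right) samples, 1 point per array, with lines joining samples of the same replicate number. For Ptges, Ptgs1, Hpgds and Alox5ap the lines run nearly flat and keep their order, and the Alox15 line of number 4 crosses most of its panel.

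**Figure D2:**
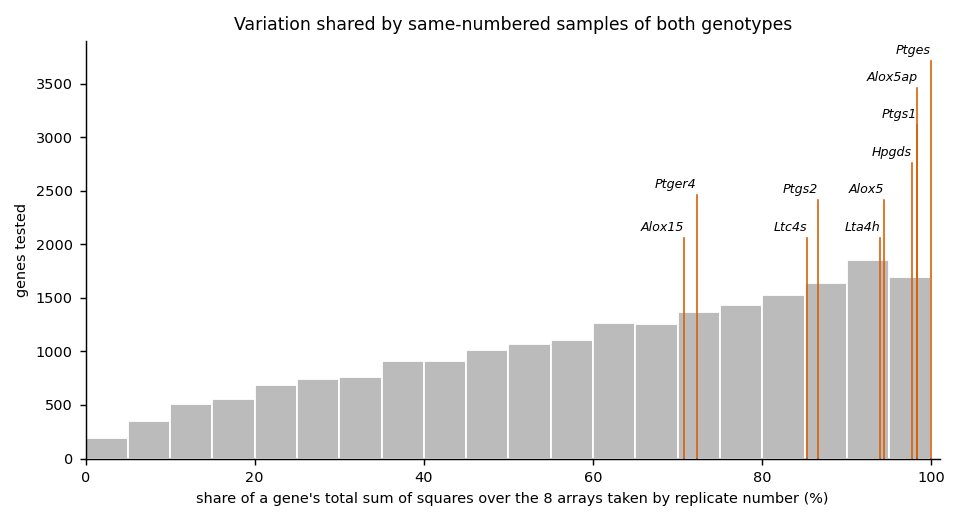
Share of each gene's total sum of squares over the 8 arrays that replicate number takes, as a histogram over all genes tested (grey) with the 10 genes marked (orange). The 10 lie between 70.7% for Alox15 and 99.96% for Ptges.

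The cyclooxygenases come first in the prostaglandin branch. Ptgs1 (NM_008969) encodes the form that many cells make at a steady level. It measured 1.16, 1.38, 2.09 and 1.07 in KO samples 1 to 4 and 1.10, 1.48, 2.01 and 0.91 in WT samples 1 to 4. The groups overlapped almost entirely, and the samples numbered 3 were the highest of both. The log2 difference was 0.048 with a standard error of 0.32 and a 95% interval of −0.70 to 0.79, which excludes a 2-fold change either way.

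Ptgs2 (NM_011198) encodes the inducible cyclooxygenase, which inflammatory stimuli switch on. One of its probes is spotted 10 times on each array. That probe measured 4.98, 4.40, 4.38 and 3.80 in KO samples 1 to 4, against 4.67, 4.42, 4.10 and 4.07 in WT samples 1 to 4. In both genotypes number 1 was the highest and number 4 the lowest, and the KO values enclosed the WT values. The means were 4.39 ± 0.49 in KO and 4.32 ± 0.28 in WT samples (SD, n = 4 each), which differ by 0.072 (SE 0.28), with an interval of −0.57 to 0.72. The second probe gave 3.24, 2.37, 2.48 and 1.86 in KO samples and 2.96, 2.49, 2.34 and 2.04 in WT samples, a difference of 0.032. The summed signal of 8 neutrophil markers was also highest in number 1, at 53.7, 21.7, 7.23 and 15.3 in KO samples and 56.3, 23.3, 7.996 and 17.8 in WT samples, but lowest in number 3. The summed signal of the eosinophil list had the Ptgs2 order in both genotypes. It fell from 6.75 to 0.483 in KO and from 6.62 to 0.286 in WT samples 1 to 4. The mast cell list was also highest in number 1. The defining eosinophil markers were dim, with Prg2 well above background on 3 arrays and Epx on 4, and did not keep that order. Epx was highest in number 2 in both genotypes, and Prg2 was lowest in number 3 in KO samples. The part of any of these cells in the Ptgs2 signal was not tested.

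The start of Ptgs2 is shown because ATF3 belongs to a family that binds the cyclic AMP response element (CRE), and that of Ptges because its level followed the replicate number most closely. Both are RefSeq promoters of build GRCm38.p6, from 250 bases before to 50 after the annotated start, at chr1:150099781-150100080 on the plus strand and chr2:30903248-30903547 on the minus strand. Capitals mark matches on either strand to the full CRE TGACGTCA, its core TGACG or the AP-1 motif TGANTCA.
Ptgs2: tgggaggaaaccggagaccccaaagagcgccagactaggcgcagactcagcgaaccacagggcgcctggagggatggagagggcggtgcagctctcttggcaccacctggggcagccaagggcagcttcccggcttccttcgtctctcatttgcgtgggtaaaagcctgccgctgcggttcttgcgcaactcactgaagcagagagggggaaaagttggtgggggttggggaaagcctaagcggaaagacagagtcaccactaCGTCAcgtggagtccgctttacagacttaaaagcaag
Ptges: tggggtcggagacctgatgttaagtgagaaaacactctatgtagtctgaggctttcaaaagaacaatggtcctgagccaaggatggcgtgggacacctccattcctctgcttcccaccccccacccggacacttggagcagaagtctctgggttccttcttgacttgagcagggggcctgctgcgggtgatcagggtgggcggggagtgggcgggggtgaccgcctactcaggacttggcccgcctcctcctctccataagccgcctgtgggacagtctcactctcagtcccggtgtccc
Of the 8 genes with an entry (all but Alox5ap and Alox15), only Ptgs2 held a match, 1 CRE core on the minus strand at bases 264 to 268 of the window. That match lies 13 to 17 bases after the annotated start, and whether transcription begins at that start in these cells was not examined. In RefSeq as a whole, 20.8% of 32851 promoters held the core, 1.79% the full CRE and 7.81% the AP-1 motif. A match to the full CRE always contains the core as well. These are letter matches and say nothing about binding in these cells.

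Ptges (NM_022415) encodes the inducible terminal synthase of prostaglandin E2, which is usually coupled to Ptgs2. It measured −1.35, −0.39, −2.98 and 0.37 in KO samples 1 to 4 and −1.36, −0.44, −2.92 and 0.31 in WT samples 1 to 4. Samples of the same number were nearly identical across genotypes, with a largest difference of 0.061, while the number means spanned 3.28. The genotype means were −1.09 ± 1.44 in KO and −1.10 ± 1.39 in WT samples (SD, n = 4 each), a difference of 0.016 with an interval of −2.03 to 2.07. Blocking on replicate number narrowed the interval to −0.27 to 0.30.

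Tumour epithelial markers had the order of Ptges across numbers, and so did the endothelial list. Epcam, an epithelial adhesion molecule, measured 1.75, 2.70, −0.048 and 3.41 in KO samples 1 to 4 and 1.61, 2.65, −0.080 and 3.18 in WT samples 1 to 4. Both genes were highest in number 4, then 2, then 1, and lowest in number 3, in both genotypes. The summed signal of 7 tumour epithelial markers, relative to the 75th percentile, was 30.3, 60.0, 11.3 and 92.1 in KO samples and 29.8, 64.7, 10.8 and 81.5 in WT samples, and all 7 were detected, although the sort for F4/80 and CD45 selects against epithelial cells. The 6 endothelial markers summed to 1.89, 2.16, 1.66 and 3.56 in KO samples and 3.16, 6.37, 1.76 and 7.59 in WT samples, in the same order in both genotypes. The 6 fibroblast markers, at 27.3, 19.5, 8.59 and 52.5 in KO samples and 20.8, 33.1, 8.08 and 39.5 in WT samples, were also highest in number 4 and lowest in number 3. The part of any of these cells in the Ptges signal was not tested, and in sorted bulk RNA fewer cells of a type cannot be told from less RNA per cell.

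Hpgds (NM_019455) encodes the haematopoietic synthase of prostaglandin D2, known from mast cells and some macrophages. Its values were −0.58, −0.30, 0.66 and −0.60 in KO samples 1 to 4 and −0.58, −0.53, 0.65 and −0.85 in WT samples 1 to 4. Number 3 stood above the others in both genotypes, and the groups overlapped. The difference was 0.12 with a standard error of 0.41 and an interval of −0.84 to 1.08. The macrophage list was highest in number 3 as well, at 349.2 in KO and 338.2 in WT samples, and so was the platelet and megakaryocyte list, at 25.1 and 29.5. The mast cell list differed, with summed signals of 12.5, 6.65, 0.786 and 4.18 in KO samples and 16.5, 3.42, 1.03 and 3.37 in WT samples, lowest in number 3 in both genotypes. One mast cell marker, Ms4a2, was well above background on no array. The part of these cells in the Hpgds signal was not tested.

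Ptger4 (NM_008965) encodes EP4, a receptor through which prostaglandin E2 raises cyclic AMP. It measured −0.33, −1.06, −0.21 and −1.77 in KO samples 1 to 4, against 0.0054, 0.70, −0.13 and −1.91 in WT samples 1 to 4. Number 4 was the lowest in both genotypes, and the only pair far apart was number 2, with the KO sample lower by 1.75. The means were −0.84 ± 0.72 in KO and −0.34 ± 1.11 in WT samples (SD, n = 4 each), a difference of −0.51 with an interval of −1.88 to 0.87. Without WT sample 2 the difference was −0.16. Without WT sample 4 it was −1.03, with an unadjusted p of 0.0495, a limma adjusted p of 0.9999 and groups that did not overlap. That was the only setting in which any of the 10 genes had an unadjusted p under 0.05. In it, 794 of 20879 genes had an unadjusted p under 0.05 and 911 had groups that did not overlap. The Ptger4 groups also did not overlap within slide 1, which holds 2 samples of each genotype. There the same held for Ltc4s, and for 5814 of 20879 genes in all.

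In the leukotriene branch, Alox5 (NM_009662) encodes the lipoxygenase that starts it. By the brightest of its 3 probes it measured 0.92, −0.17, 0.71 and −1.14 in KO samples 1 to 4 and 0.70, −0.46, 1.37 and −0.86 in WT samples 1 to 4. Numbers 1 and 3 were above numbers 2 and 4 in both genotypes. The difference was −0.11 by this probe, −0.041 by the second and 0.44 by the third, with intervals of −1.55 to 1.33, −1.69 to 1.61 and −1.14 to 2.01 in the fit across probes, so the probes differ in sign and every interval includes 0.

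Alox5ap (NM_009663) encodes the membrane protein that presents arachidonic acid to that lipoxygenase. Its values were 5.55, 4.98, 5.39 and 4.26 in KO samples 1 to 4, against 5.69, 4.95, 5.50 and 4.03 in WT samples 1 to 4. The numbers ranked alike in both genotypes, with 1 highest and 4 lowest, and the means were both 5.04, with SDs of 0.57 in KO and 0.75 in WT samples (n = 4 each). The difference was −0.00016 with a standard error of 0.43. Csf1r, the macrophage growth factor receptor, was likewise higher in numbers 1 and 3 than in 2 and 4, at 4.86, 4.15, 4.93 and 3.68 in KO samples and 4.95, 4.56, 4.84 and 3.62 in WT samples. The summed signal of 7 macrophage markers was 290.4, 242.8, 349.2 and 177.9 in KO samples and 288.7, 261.7, 338.2 and 172.4 in WT samples. Its part in these values was not tested.

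Lta4h (NM_008517) encodes the hydrolase that makes leukotriene B4, a neutrophil attractant. It varied least of the 10, with a within-genotype SD of 0.32, and measured 0.47, 0.41, −0.039 and 0.055 in KO samples 1 to 4 and 0.68, 0.41, −0.037 and −0.13 in WT samples 1 to 4. Numbers 1 and 2, on slide 1, were above numbers 3 and 4, on slide 2, in both genotypes. The difference was −0.0066 with an interval of −0.56 to 0.55, which excludes a 2-fold change.

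Ltc4s (NM_008521) encodes the synthase of leukotriene C4, from which the other cysteinyl leukotrienes derive. It measured 1.53, 1.38, 2.64 and 0.58 in KO samples 1 to 4, against 0.99, 0.41, 2.34 and 0.77 in WT samples 1 to 4. The KO sample was higher in 3 of 4 numbers, and number 3 was the highest in both genotypes. The means were 1.53 ± 0.85 in KO and 1.13 ± 0.84 in WT samples (SD, n = 4 each). The difference was 0.41 (SE 0.54), with an interval of −0.84 to 1.65 and a limma adjusted p of 0.9999. With the replicate block its unadjusted p was 0.13 and its adjusted p 0.737, the smallest of the 10 genes. Without KO sample 3 the difference was 0.036 and without WT sample 3 it was 0.81.

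Alox15 (NM_009660) encodes the mouse lipoxygenase known as leukocyte-type, which resident peritoneal macrophages and eosinophils make in quantity. It varied most of the 10, with a within-genotype SD of 2.47, above 99.6% of all genes tested. It measured 1.05, −1.75, −4.03 and −0.30 in KO samples 1 to 4 and 1.59, −1.61, −3.13 and −4.88 in WT samples 1 to 4. Number 1 was the highest in both genotypes, and in number 4 the KO sample was higher by 4.59, while the KO sample was lower in the other 3 numbers. In intensity units number 4 gave 639.5 in the KO and 26.7 in the WT sample. The WT value was the dimmest of all arrays, and the KO value was above those of KO samples 2 and 3, at 275.9 and 50.4. The difference was 0.75 (SE 1.54, interval −2.80 to 4.31). It was −0.20 without WT sample 4, 0.43 without KO sample 4 and −0.014 without KO sample 1. The eosinophil markers were also highest in number 1, with summed signals of 6.75, 1.06, 0.561 and 0.483 in KO samples and 6.62, 1.10, 0.562 and 0.286 in WT samples. The neutrophil list, at 53.7 in KO and 56.3 in WT sample 1, and the mast cell list, at 12.5 and 16.5, were highest there as well. In number 4 the KO sample was higher than the WT sample for the eosinophil list, at 0.483 against 0.286. It was also higher for the mast cell list, at 4.18 against 3.37, but lower for the neutrophil list, at 15.3 against 17.8. The defining eosinophil markers were dim, with Prg2 well above background on 3 arrays and Epx on 4. Unlike the summed signal, Epx was highest in number 2 in both genotypes. The part of these cells in the Alox15 signal was not tested.

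**Figure D3:**
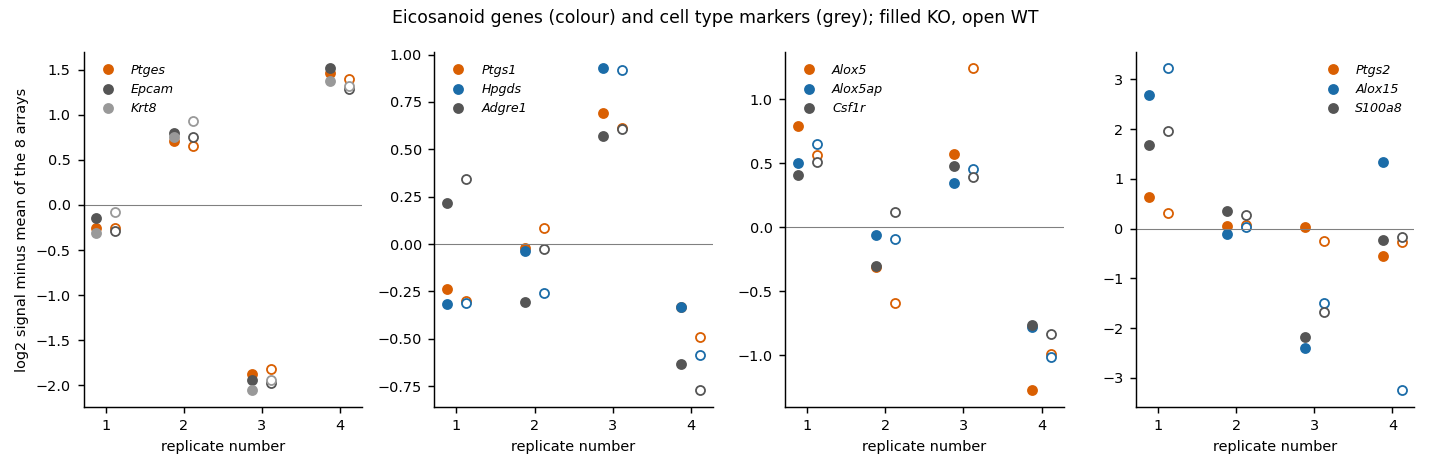
Levels of 7 of the genes (colour) beside cell type markers (grey), each as log2 signal minus its mean over the 8 arrays, by replicate number, with KO filled and WT open. Ptges lies close to Epcam and Krt8, and Alox5ap falls with Csf1r in number 4, while Ptgs1 and Hpgds peak with Adgre1 in number 3 but lie below it in number 1. The markers shown were chosen after their values were seen.

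Blocking on replicate number narrowed most intervals and changed no call. The 95% interval excluded a 2-fold change either way for 3 of the 10 genes without it (Ptgs1, Ptgs2 and Lta4h), against 51.4% of all genes, and for 8 of 10 with it (all but Alox15 and Ptger4), against 65.1% of all genes. With the block, 0 of 10 were called (0% of all genes) and 0 of 10 had an unadjusted p under 0.05, against 7.57% of all genes. The smallest limma adjusted p among them was then 0.737.

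**Figure D4:**
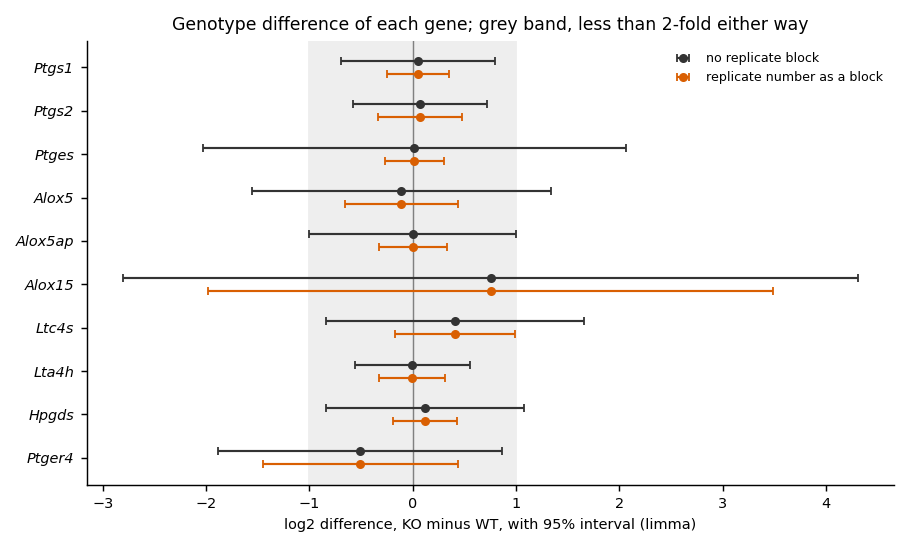
Log2 difference, KO minus WT, of the 10 genes with its 95% interval from limma, without (dark) and with (orange) the replicate number as a block. All intervals include 0. In the blocked fit the intervals of 8 genes lie inside the grey band of less than 2-fold either way.

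Slide could be separated from genotype, since each slide held both. Within slide 1 and slide 2 the differences were −0.021 and 0.12 for Ptgs1, 0.14 and 0.00036 for Ptgs2, 0.029 and 0.0035 for Ptges, 0.11 and 0.13 for Hpgds, and −1.05 and 0.032 for Ptger4. They were 0.25 and −0.47 for Alox5, −0.059 and 0.059 for Alox5ap, −0.10 and 0.091 for Lta4h, 0.75 and 0.057 for Ltc4s, and −0.34 and 1.85 for Alox15. No gene was called within either slide.

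The genes with the most similar pattern over the 8 arrays were found by Pearson's r against 13423 other named genes. They were Mpzl1 (r = 0.9985) and Grhl2 (r = 0.9983), an epithelial transcription factor, for Ptges. Ptgr2, a reductase that inactivates prostaglandins, was the nearest to Ptgs1 (r = 0.9907), Ifitm1 to Ptgs2 (r = 0.977), Selenot (r = 0.9945) and the chemokine gene Ccl8 (r = 0.986) to Hpgds, and Stag3 to Ptger4 (r = 0.9947). In the leukotriene branch they were Atp6v0a1, a proton pump subunit, for Alox5 (r = 0.989), Armc3 for Alox5ap (r = 0.9948), Lilra5 for Ltc4s (r = 0.986), Gzmd for Lta4h (r = 0.96) and Eif3g for Alox15 (r = 0.962). These are the highest of many values over 8 arrays that share numbers and slides, and are given as a description.

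The rest of the pathway was read from a list of 52 genes, of which 41 could be tested. Another 9, among them the prostaglandin receptor genes Ptger3 and Ptgdr, were well above background on fewer than 4 arrays, and Cbr1 and Ptger1 had no named probe here. Of these 0 were called, against 0% of all genes, 0 had an unadjusted p under 0.05, against 3.36%, and 0 had groups that did not overlap, against 2.13%. Their median difference was 0.031, with 25 higher and 16 lower, beside −0.0090 over all genes. By role, 6 of 6 phospholipases were higher by any amount, 7 of 8 genes of prostanoid synthesis and 2 of 7 of the lipoxygenase branch. So were 4 of 5 of leukotriene processing, 3 of 6 of degradation and transport and 3 of 9 receptors, against 48.5% of all genes. The median differences of these roles, in the same order, were 0.067, 0.18, −0.057, 0.1, −0.033 and −0.17. None was called in any of them.

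Pla2g4a encodes the cytosolic phospholipase that supplies arachidonic acid. It measured 1.41, 1.15, 2.06 and 0.74 in KO samples 1 to 4 and 0.96, 0.87, 1.69 and 0.42 in WT samples 1 to 4, higher in the KO sample of every number although the groups overlapped. The difference was 0.35 with a standard error of 0.36 (limma adjusted p = 0.9999). With the replicate block its unadjusted p was 0.0253 and its adjusted p 0.635.

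Hpgd encodes the dehydrogenase that inactivates prostaglandin E2. It gave 1.60, 1.28, 2.16 and 0.31 in KO samples 1 to 4, against 0.65, −0.16, 1.82 and −1.52 in WT samples 1 to 4, again with the KO sample higher in every number. The difference was 1.14 with an interval of −0.51 to 2.79 (limma adjusted p = 0.9999), and with the block the unadjusted p was 0.0112 and the adjusted p 0.634. Fpr2, a lipoxin and formyl peptide receptor, and Akr1c18 had unadjusted p values of 0.0363 and 0.04996 with the block, so 4 of 41 genes, all higher, were under 0.05 there, against 7.57% of all genes in either direction and 2.92% higher.

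The largest difference toward lower values was that of Ptgir, the prostacyclin receptor, at −1.27 with an interval of −2.71 to 0.18. Its values were −0.89, −3.94, −1.97 and −1.74 in KO samples 1 to 4 and −1.21, −0.20, −1.36 and −0.71 in WT samples 1 to 4, so that the groups overlapped through KO sample 1. Of the other synthases, Tbxas1, which makes thromboxane, differed by 0.14, the constitutive prostaglandin E synthase genes Ptges2 and Ptges3 by 0.23 and 0.074, and Ptgis, the prostacyclin synthase, by 0.90. Among the receptors Ptger2, the other prostaglandin E2 receptor that raises cyclic AMP, differed by −0.15, Ltb4r1, a leukotriene B4 receptor, by 0.44, and Cysltr1, a cysteinyl leukotriene receptor, by 0.0095. Ptgdr2, a prostaglandin D2 receptor, differed by −0.32 and was lower in the KO sample of every number. By the same scale Aloxe3 and Alox12b, lipoxygenases known from skin, differed by 0.90 and −0.32, and Ptgds, the other prostaglandin D2 synthase, by 0.35. None of these passed the test (limma adjusted p = 0.9999 for each).

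**Figure D5:**
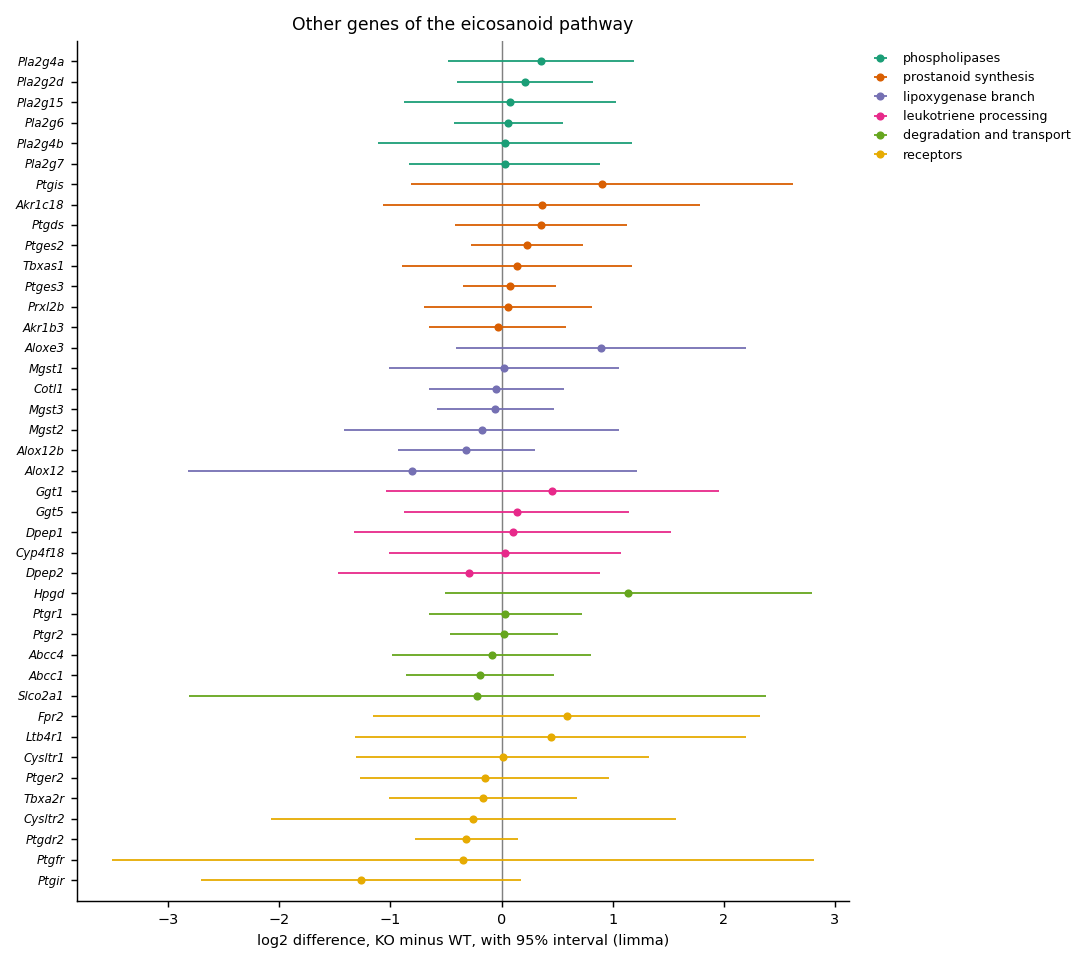
Log2 difference, KO minus WT, of the 41 other pathway genes tested, with 95% intervals from limma, grouped by role. Every interval includes 0. The widest is that of Ptgfr and the difference farthest from 0 is that of Ptgir.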

How the data were processed

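Microarray signals of 4 KO and 4 WT samples were compared. Per the file headers, each sample had a 1-colour Agilent array read by Feature Extraction 10.7.1.1. Version 10.5 stands in the submitters' processing notes. The deposited intensity is a processed signal, background-subtracted and detrended by that software and not normalized between arrays. A deposited table of processed intensity values, with steps not stated and nearly equal quartiles across arrays, served as an alternative.

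Spots that were controls or marked as outliers were dropped. Repeat spots were averaged on the log2 scale and the array's 75th percentile over non-control spots was subtracted. A probe had to be well above background on 4 or more of the 8 arrays (27165 of 41174), and the brightest stood for its gene. Probes were named by accession through a RefSeq table of GRCm38.p6, 25097 of them. Genotypes were compared across all 20879 genes by a two-sided limma 3.58.1 fit (R 4.3.3) and p-values adjusted by Benjamini-Hochberg. The procedure was tested on simulated data.

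Deviations from group means correlated at 0.301, 0.14, 0.702 and 0.512 between KO and WT samples numbered 1 to 4, all above 0.1. The numbers were taken as pairs in the replicate block and in comparisons within a number, while the main fit had no block. KO sample 4 with WT sample 2 reached 0.154 and KO sample 2 with WT sample 4 reached 0.139. The correlations thus do not set the pair of number 2 apart.

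The genes and lists were chosen with earlier results of these data known. Named genes follow a fixed rule: all members, the pathway genes with the smallest p and 8 named ones, the first 2 markers of each list and up to 2 genes of most similar pattern. Csf1r, S100a8 and Krt8 are markers of that kind, and Ptgfr, Fpr2 and Akr1c18 were named after their values were seen. Alternatives were normexp (on median spot and local background signals), quantile normalization, no or a stricter filter, the deposited table, slide, replicate block and each sample left out.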

Additional observations from a re-analysis of the deposited data

How the results depend on the processing

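In every alternative run 0 of the 10 genes, of their probes and of the other pathway genes tested were called in limma (the deposited table gave 9 of the 10 genes, without Ptgs2, and 12 of the 13 probes), with smallest adjusted p values for the 10 genes of 0.737 with the replicate block, 0.876 with normexp and over 0.99 otherwise. Over all genes, 0 were called in each alternative except that leaving out single samples gave 0 to 1, the 1 without KO sample 1 and outside both lists. Signs turned for small differences and also for Alox15 and Ptger4, which had the largest. Within slide 1 the difference turned to −0.021 for Ptgs1, 0.25 for Alox5 and −0.34 for Alox15, and within slide 2 to 0.059 for Alox5ap, 0.091 for Lta4h and 0.032 for Ptger4. Normexp moved the median of all genes from −0.0090 to −0.14 and gave −0.24 for Ptges, 0.0068 for Alox5, 0.20 for Alox5ap and 0.030 for Lta4h. Quantile normalization gave 0.00081 for Alox5ap, the deposited table −0.057 for Ptges and 0.021 for Alox5ap, and the third Alox5 probe 0.44. Leaving out 1 sample breaks a pair, and the differences then ranged from −0.17 to 0.26 for Ptgs1, −0.13 to 0.27 for Ptgs2, −0.59 to 0.65 for Ptges, −0.46 to 0.30 for Alox5, −0.34 to 0.26 for Alox5ap, −0.20 to 1.95 for Alox15, 0.036 to 0.81 for Ltc4s, −0.13 to 0.14 for Lta4h, −0.17 to 0.45 for Hpgds and −1.03 to −0.16 for Ptger4. The replicate block changed no call. The cause of these sign changes was not tested, and 4 arrays per genotype limit the precision.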

Other observations

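The probe of Ptgs2 that is spotted 10 times shows the technical spread within an array. The SD of log2 signal between its spots was 0.044, 0.042, 0.048 and 0.038 on the arrays of KO samples 1 to 4, and 0.22, 0.098, 0.20 and 0.073 on those of WT samples 1 to 4. The spots ranged from 19347.2 to 21297.4 intensity units in KO sample 1 and from 10235.8 to 17511.9 in WT sample 1, and no spot was marked as an outlier on any array. Each KO array thus had a smaller spread than each WT array for this probe. No sample stood apart from the other 3 of its group by Dixon's test in any of the 26 sets of 4 values, 13 probes in each genotype.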
